A study of Homo sapiens with 12 samples.

Results

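The 10 genes described here carry out the transcriptional and feedback arms of the integrated stress response: ATF4, ATF5, ATF3, CEBPB, DDIT3, PPP1R15A, PPP1R15B, TRIB3, CHAC1 and SESN2. They were chosen by symbol from the 23284 symbols of the series, with no measured value in the rule. The choice was nevertheless made with earlier results of these data known. All 10 are listed and were tested in both deposited tables. The samples were 12 libraries of polysome-fraction RNA from the human embryonic kidney line HEK293, taken 24 h after transfection with 5 ug of plasmid. A first experiment compared empty vector with a plasmid for STING, the membrane adaptor of cytosolic DNA sensing. A second, the knockout experiment, repeated vector and STING in 2 genotypes, labelled Wild type and PERK KO; the latter should lack the kinase PERK. Every group was transfected, so no comparison holds untransfected cells, and whether the knockout line is 1 clone is not given in the sources used here. Each of the 6 groups has 2 libraries, and nothing in the labels says that they were separate cultures. The p-values therefore rest on how far libraries of the same group lie apart, which may be technical. That spread was estimated with information shared over genes and, in the knockout experiment, over all its groups.

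In the integrated stress response, kinases such as PERK phosphorylate the initiation factor eIF2alpha. General initiation then slows, while mRNAs with suitable upstream open reading frames, ATF4 first among them, are translated more. ATF4 switches on genes of amino acid supply and further factors, including CHOP (the protein of DDIT3) and ATF3, and the pathway closes on itself through GADD34 (PPP1R15A), which brings protein phosphatase 1 back to eIF2alpha. The values below are FPKM, fragments scaled to transcript length and sequencing depth, in polysome RNA. Total RNA was not analysed here, so the amount of an mRNA and its loading with ribosomes cannot be told apart. Nor, in such bulk samples, can fewer responding cells and less RNA per cell.

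The promoters of 4 members are shown, which leaves out ATF3 and CEBPB, though both also rose with STING in the first experiment. PPP1R15A, CHAC1 and DDIT3 rose with STING in the first experiment, and CHAC1 and DDIT3 were lower in knockout than in wild-type cells with STING. PPP1R15B, the constitutive counterpart of PPP1R15A in the same phosphatase task, passed in no comparison. Each line gives the 300 bases from 250 before the transcription start to 50 after it, from RefSeq on GRCh38.p14, read 5′ to 3′ on the gene's strand. The coordinates are chr19:48872171-48872470 (plus strand) for PPP1R15A, chr1:204411768-204412067 (minus) for PPP1R15B, chr15:40953221-40953520 (plus) for CHAC1 and chr12:57520465-57520764 (minus) for DDIT3. Capitals mark matches on either strand to TGATGNAA, the core of the element bound by ATF4 with C/EBP factors, or to TGACGT, the core of the cyclic AMP response element bound by ATF and CREB factors.
PPP1R15A: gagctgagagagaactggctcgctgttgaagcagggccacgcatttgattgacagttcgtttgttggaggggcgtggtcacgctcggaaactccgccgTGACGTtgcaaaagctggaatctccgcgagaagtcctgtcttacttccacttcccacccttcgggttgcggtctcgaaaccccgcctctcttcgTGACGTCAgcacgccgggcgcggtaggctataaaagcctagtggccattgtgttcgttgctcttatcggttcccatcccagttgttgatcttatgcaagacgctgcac
PPP1R15B: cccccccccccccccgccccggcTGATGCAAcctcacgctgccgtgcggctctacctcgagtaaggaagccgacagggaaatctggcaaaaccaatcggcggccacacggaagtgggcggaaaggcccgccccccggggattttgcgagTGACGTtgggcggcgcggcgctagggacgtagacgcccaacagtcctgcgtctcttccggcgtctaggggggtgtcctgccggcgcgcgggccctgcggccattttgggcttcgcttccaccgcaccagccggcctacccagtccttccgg
CHAC1: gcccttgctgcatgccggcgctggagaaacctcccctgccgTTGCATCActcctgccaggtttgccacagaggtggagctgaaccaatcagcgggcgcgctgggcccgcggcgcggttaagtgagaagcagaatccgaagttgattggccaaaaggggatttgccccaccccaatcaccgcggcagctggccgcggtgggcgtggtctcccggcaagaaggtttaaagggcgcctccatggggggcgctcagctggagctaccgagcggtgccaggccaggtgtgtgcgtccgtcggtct
DDIT3: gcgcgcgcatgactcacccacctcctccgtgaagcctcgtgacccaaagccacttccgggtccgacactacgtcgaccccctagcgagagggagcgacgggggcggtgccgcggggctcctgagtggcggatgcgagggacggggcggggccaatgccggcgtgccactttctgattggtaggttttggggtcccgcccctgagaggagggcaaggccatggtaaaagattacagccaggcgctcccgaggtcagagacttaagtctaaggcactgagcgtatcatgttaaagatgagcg
In PPP1R15A the full palindrome TGACGTCA began 58 bases before the start, and a further TGACGT 152 bases before it. PPP1R15B held TGATGCAA 227 bases and TGACGT 101 bases before its start. CHAC1 held TTGCATCA, the reverse complement of TGATGCAA, 209 bases before its start. Of 35116 promoter windows of this length, 3.62% held TGATGNAA, 7.98% held TGACGT and 1.85% held TGACGTCA. All members matched to RefSeq windows, 18 in all. DDIT3 had 2 windows, of which 1 is shown, and neither held a match. Outside the genes shown, only ATF3 had a match, TGATGGAA 191 bases before the upstream of its 2 listed starts. These are matches of letters, not measured binding.

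Upstream start codons are a second sequence feature that many members share. On 1 GENCODE v29 transcript per gene, 8 of the 10 members had an ATG before the coding sequence, against 51.7% of 19485 coding genes. The stretch before the coding sequence was 20 nt long in CHAC1 and 209 to 882 nt in the other members. Its median over coding genes was 180 nt, and the part of this length in the counts was not tested. ATF4 had 7, of which 2 opened frames that overlap the coding sequence. ATF5, ATF3 and DDIT3 each had 1 overlapping frame, as did 17% of coding genes. Counts depended on the transcript: ATF4 had 3 to 7, ATF5 2 to 6, ATF3 0 to 5, DDIT3 2 to 5 and TRIB3 2 to 3. CHAC1 had 0 on the one chosen and up to 4 on others. Which transcripts these cells use was not measured.

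The STING transcript, listed as TMEM173, checks the transfection. Its vector libraries of the first experiment gave 14.9 and 13.8 FPKM and its STING libraries 65157 and 69253. Wild-type cells of the knockout experiment went from 23.1 and 36.7 to 41812 and 40660, and knockout cells from 23.5 and 43.8 to 10512 and 7338. STING RNA after transfection was thus 4.62 times higher in the wild type than in the knockout, a gap that goes along with every genotype difference given below for STING-transfected cells; its part in them was not tested. EIF2AK3, the PERK gene, lay between 0.291 and 0.465 FPKM in the first experiment and at the floor of 1 in 7 of 8 libraries of the second, so it cannot check the knockout label. Of 8 markers of HEK293 cells, CDH2, KRT8, KRT18, VIM and NEFL were above the floor in each library, PAX2 and LHX1 were at or near it in all, and NEFM reached 3.24 in knockout libraries only. Their sum was 113 to 130 (vector) and 154 (STING) in the first experiment, 165 to 233 in wild-type and 295 to 498 in knockout libraries. The sum of 6 fibroblast markers was at most 0.450 in the first experiment, and COL1A1, the 1 of them listed in the second, was at most 1.75. Of the blood-cell markers in the first experiment, PTPRC, CD3E and HBB were at 0, CD14 was at or under 0.488, and LYZ was at 2.62 and 3.12 (vector) and 0.900 and 1.23 (STING). In the second, LYZ was at 4.08 to 6.43 in wild-type and 2.76 to 10.3 in knockout libraries. The sum of 6 hepatocyte markers was 4.78 to 8.97 (vector) and 1.41 to 1.70 (STING) in the first experiment. The 3 listed in the second, APOA1, APOA2 and FGB, summed to 4.00 to 4.50 in wild-type and 6.72 to 13.0 in knockout libraries, with FGB at the floor in all. The part of these differences in the results was not tested. The 2 tables are not on a shared scale, and a floor of 1 in the second understates falls of low genes.

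ATF4 was by far the most abundant member in each of the 6 groups. Its means ran from 448 FPKM in vector cells to 544 in STING cells of the first experiment, and from 1488 to 2727 in the knockout experiment. DDIT3 followed in 4 groups and PPP1R15A in the others. In wild-type vector cells the libraries of DDIT3 and PPP1R15A overlapped, as did those of DDIT3 and ATF3 in first-experiment STING cells. CEBPB, a C/EBP factor that pairs with ATF4 and CHOP, and ATF5, an ATF4 relative, were the lowest in the first experiment, at 1.10 and 2.88 FPKM with vector. The middle of the order was not resolved: TRIB3, SESN2 and CHAC1 overlapped one another in first-experiment vector cells.

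The first comparison asks how polysome RNA changes when STING is expressed in unmodified HEK293 cells. ATF3, CEBPB, DDIT3, PPP1R15A and CHAC1 rose, and no member fell. That is 5 of 10 members higher, where 2.51% of 9464 tested genes were called higher and 9.29% lower (11.8% in all). Earlier results of these data were known when the members were chosen, so this contrast is a description. The median log2 change of the members was 0.69, against -0.05 over all tested genes. Tests were made with limma on log2(FPKM + 1), which understates changes of low genes, with Benjamini-Hochberg adjustment over all genes tested.

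**Figure D1:**
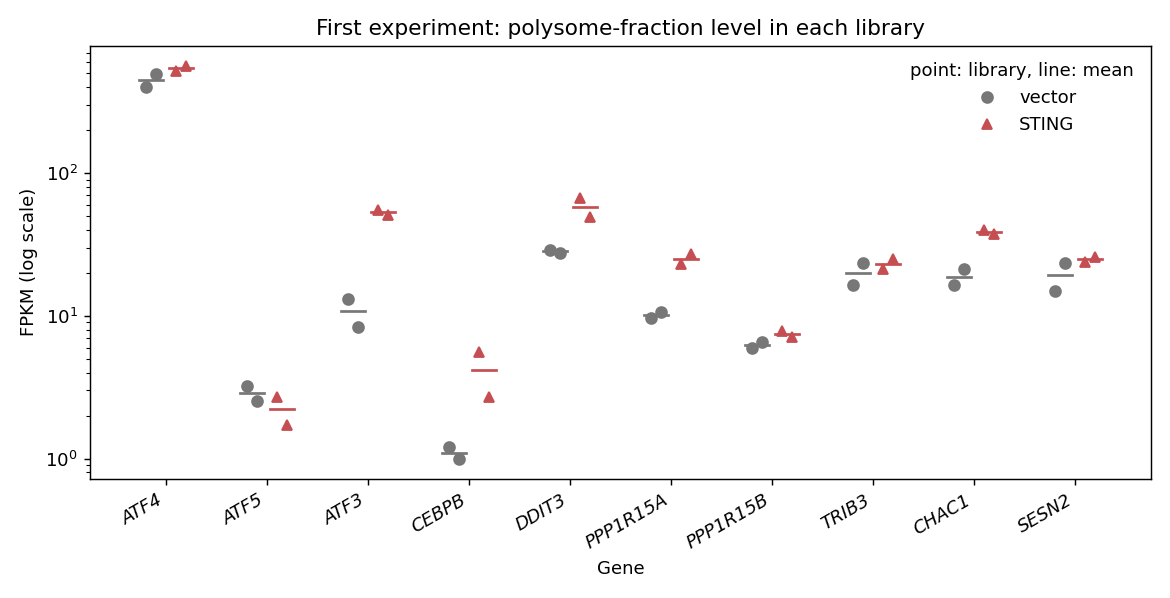
FPKM of each member in the first experiment, on a log axis, with each library as a point (grey circles vector, red triangles STING) and the group mean as a line. STING libraries lie above vector libraries without overlap for 8 genes, ATF3 with the widest gap (13.1 and 8.34 against 55.0 and 51.3), while ATF5 and TRIB3 overlap.

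Among the transcription factors, ATF4 itself measured 403 and 493 FPKM in the vector libraries and 520 and 567 in the STING libraries. The groups did not overlap, but the log2 change of 0.28 (SE 0.12) did not pass (limma adjusted p = 0.186). ATF3, a stress-induced bZIP factor that can repress transcription, stood at 13.1 and 8.34 with vector and at 55.0 and 51.3 with STING. Both STING libraries were several times above both vector libraries, and the rise of 2.24 (SE 0.22, limma adjusted p = 0.00176) placed ATF3 above 99.4% of tested genes. DDIT3, whose product CHOP promotes cell death under lasting stress, stood at 29.1 and 27.6 with vector and at 66.5 and 49.0 with STING (log2 change 0.99, SE 0.18, limma adjusted p = 0.0134). The vector libraries were close to each other and the STING libraries further apart. CEBPB stood at 1.20 and 0.994 with vector and at 5.58 and 2.71 with STING, with a log2 change of 1.24 (SE 0.32, limma adjusted p = 0.0432). Its STING libraries differed from each other by more than the vector mean, and its call was lost with each of the 4 libraries left out (adjusted p from 0.103 to 0.274) and with a pseudocount of 5 (0.0561). ATF5, whose mRNA is also under upstream open reading frame control, stood at 3.22 and 2.54 against 2.69 and 1.73, and these overlapped.

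The feedback genes split. PPP1R15A, the inducible phosphatase subunit GADD34, rose from 9.71 and 10.6 FPKM to 23.0 and 27.1 (log2 change 1.22, SE 0.18, limma adjusted p = 0.00630). PPP1R15B, the constitutive subunit CReP, stood at 5.98 and 6.59 with vector and at 7.86 and 7.13 with STING, without overlap but with a log2 change of 0.22 (SE 0.21) that did not pass. CHAC1, a glutathione-degrading enzyme induced through ATF4, rose from 16.4 and 21.2 to 39.9 and 37.4 (1.01, SE 0.18, limma adjusted p = 0.0124). TRIB3, a pseudokinase that binds ATF4 and CHOP, stood at 16.5 and 23.4 against 21.4 and 25.0, which overlapped. SESN2, a sestrin that restrains mTORC1, stood at 14.9 and 23.5 against 23.8 and 25.9, a gap of 0.39 (SE 0.23) that did not pass (limma adjusted p = 0.323). In all, 8 of 10 members had both STING libraries above both vector libraries, as had 24.2% of tested genes, and none had both below, against 32.8% of genes. At an unadjusted p under 0.05 the same 5 members were higher and none lower, against 8.82% and 18.9% of genes.

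The 5 calls needed both STING libraries in the fit, and a fit without a library holds fewer samples. Calls over all genes fell in those fits as well. Without STING library 1 or without STING library 2, none of the 5 passed with limma (adjusted p from 0.114 to 0.274), though their log2 changes stayed between 0.77 and 2.28; without vector library 2, 3 passed, DDIT3 being lost at 0.0558. In GENCODE, DDIT3 overlaps MBD6 and MARS on the other strand, and the coding gene AC022506.1 and the microRNA gene MIR616 on its own strand. CEBPB and PPP1R15B each overlap an antisense RNA. ATF5 overlaps NUP62 and IL4I1 on the other strand and the microRNA gene MIR4751 on its own. ATF4 has 4 pseudogenes named after it, which could take a share of its reads. The use of strand in counting is not given in the sources used here, so reads of partners on the other strand cannot be told apart. For partners on the same strand, strand would not tell reads apart in any case.

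Other genes of the pathway moved in the first experiment by list. These lists too were chosen with earlier results of these data known. Of 41 tested targets of ATF4 and CHOP outside the members, 13 rose and 0 fell (median log2 change 0.45, against -0.05 over all genes), where 2.51% of all genes rose and 9.29% fell. The largest rises were in PMAIP1 (NOXA) and BBC3 (PUMA), BH3-only proteins that promote apoptosis, and in ASNS, asparagine synthetase. PMAIP1 stood at 29.4 and 35.1 FPKM and then 142 and 126, BBC3 at 4.00 and 6.06 and then 20.6 and 14.9. PMAIP1 and BBC3 are also known as p53 targets. Of 16 bZIP partners and related factors 4 rose and 0 fell: FOS, MAFF, JUNB and CEBPG, the last named after its value was seen. JUNB, an AP-1 subunit, stood at 4.08 and 4.50 and then at 12.8 and 13.0. Of 15 eIF2alpha kinases, eIF2 and eIF2B subunits and phosphatase 1 genes, PPP1CC, a catalytic subunit, rose and 0 fell. Of 18 genes of the IRE1 and ATF6 branches of the unfolded protein response 0 rose and 3 fell: SDF2L1, CRELD2 and MANF, all of the endoplasmic reticulum, a share to be read against the 9.29% of all genes that fell. SDF2L1 stood at 1190 and 1200 with vector and at 445 and 414 with STING. Each of these counts was 0 without STING library 1 and 0 without STING library 2. Without vector library 1 or 2, 9 and 10 targets rose, and PPP1CC was lost without vector library 2. Without trend and robust estimation each count was 0, and without a filter on low values 7 of 47 targets rose.

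In wild-type cells of the knockout experiment, STING was compared with vector again, in a table of its own scale. ATF3 and DDIT3 were the only members whose STING libraries both lay above both vector libraries, as did 3.31% of 12254 tested genes. No member passed with limma, where 1 gene (0.00816%), TMEM173 itself, did; at an unadjusted p under 0.05, ATF3 and DDIT3 were higher, as were 0.441% of genes, and no member was lower, against 12.4% of genes. The median gene changed by -0.27 here and by -0.02 after median-of-ratios scaling, which divides each library by its median ratio to a reference, so values relative to that median are given as well. The median of the members was 0.05 before this adjustment, and 9 of 10 lay above the median gene. After median-of-ratios scaling ATF3, DDIT3 and PPP1R15A were higher at that threshold (limma unadjusted p = 0.00157, 0.00262 and 0.0332). The same members were higher with quantile normalization (limma unadjusted p = 0.000535, 0.00144 and 0.0109). No member passed after adjustment under either scaling.

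**Figure D2:**
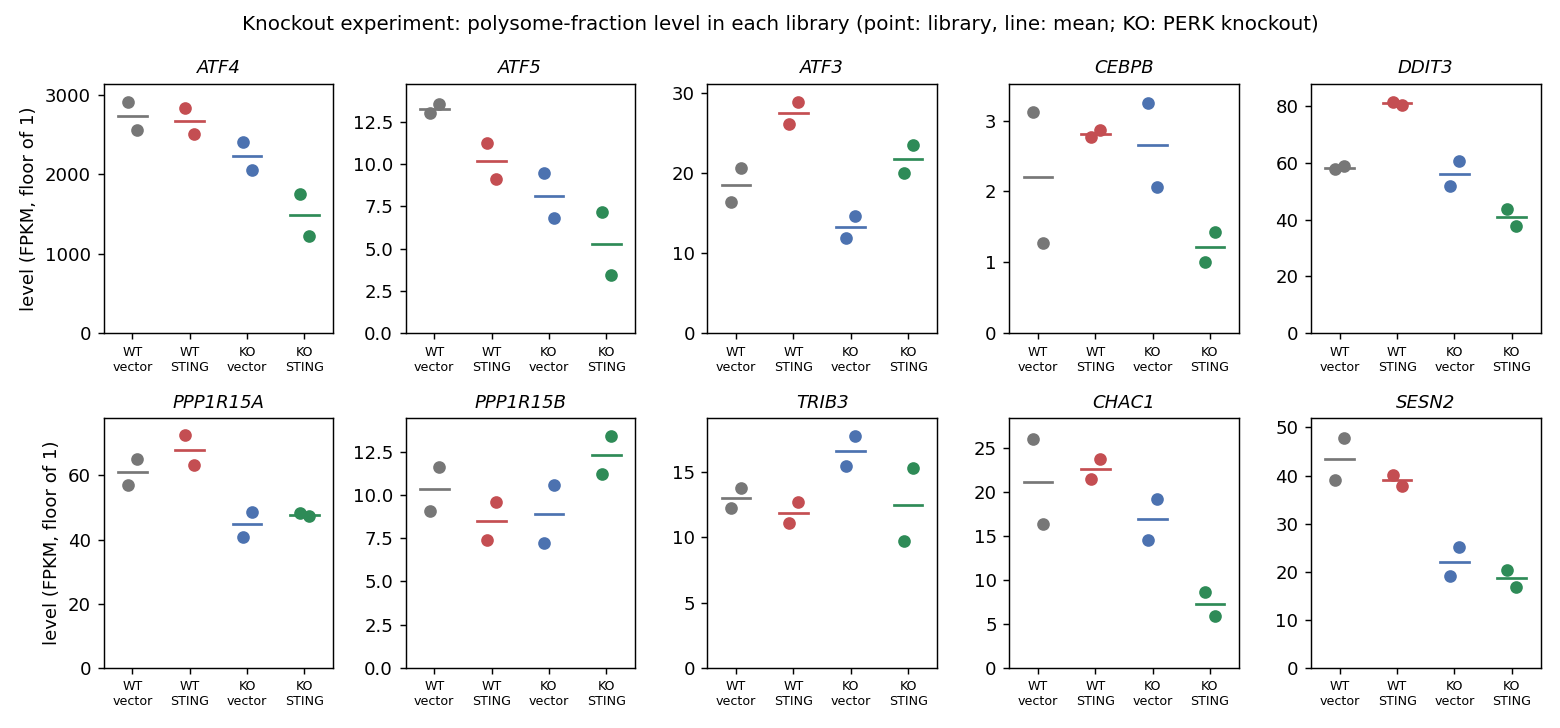
Level of each member in the 8 libraries of the knockout experiment, with points for libraries and lines for group means (WT, wild type; KO, PERK knockout; linear axes from 0). DDIT3 is the member with STING above vector in wild-type cells and below it in knockout cells without overlap, ATF3 lies higher with STING in both genotypes, and SESN2 is lower in all knockout libraries.

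DDIT3 stood at 57.8 and 58.8 with vector and at 81.7 and 80.4 with STING in wild-type cells. The 2 pairs were tight and apart, with a log2 change of 0.47 (SE 0.17), 0.74 above the median gene, but the limma adjusted p was 0.384. ATF3 stood at 16.3 and 20.5 and then 26.1 and 28.8 (0.56, SE 0.21, 0.82 above the median gene, the same adjusted p). ATF4 was level, at 2905 and 2549 with vector and 2829 and 2502 with STING. PPP1R15A stood at 56.9 and 65.2 against 72.5 and 63.2, and CHAC1 at 26.0 and 16.3 against 21.5 and 23.7, so both overlapped. CEBPB was low, at 3.13 and 1.28 against 2.77 and 2.86. ATF5 was the single member below vector in both STING libraries, at 13.0 and 13.6 against 11.2 and 9.12, where 52.3% of genes had that form. PPP1R15B, TRIB3 and SESN2 had log2 changes of -0.26, -0.12 and -0.15, which turned positive after median-of-ratios scaling, as did that of ATF4 (from -0.03 to 0.27, but -0.04 with quantile normalization). That of ATF5, -0.36, was -0.08 and 0.01 under these scalings.

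In PERK knockout cells several members stood lower with STING than with vector. Both STING libraries lay below both vector libraries for ATF4, CEBPB, CHAC1, DDIT3 and TRIB3, as for 21.9% of genes, and above them for ATF3 and PPP1R15B, as for 5.66%. None of the 10 passed with limma, where TMEM173 alone did (0.00816%); at an unadjusted p under 0.05, 3 were lower (ATF4, CHAC1, DDIT3; 6.64% of genes) and ATF3 was higher (1.06%). After median-of-ratios scaling CHAC1 alone was lower at that threshold, and ATF3 and PPP1R15B were higher (limma unadjusted p = 0.00200 and 0.0299). Both were also higher with quantile normalization (limma unadjusted p = 0.000796 and 0.0144). The log2 change of PPP1R15B was 0.58 and 0.61 under these scalings. DDIT3 had -0.31 after median-of-ratios scaling (limma unadjusted p = 0.126) and -0.23 with quantile normalization (0.218). ATF4 had -0.46 (0.159) and -0.40 (0.0103). The median of the members was -0.43, against -0.11 over all genes, and 3 of 10 were above 0 under each of the 3 scalings.

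**Figure D3:**
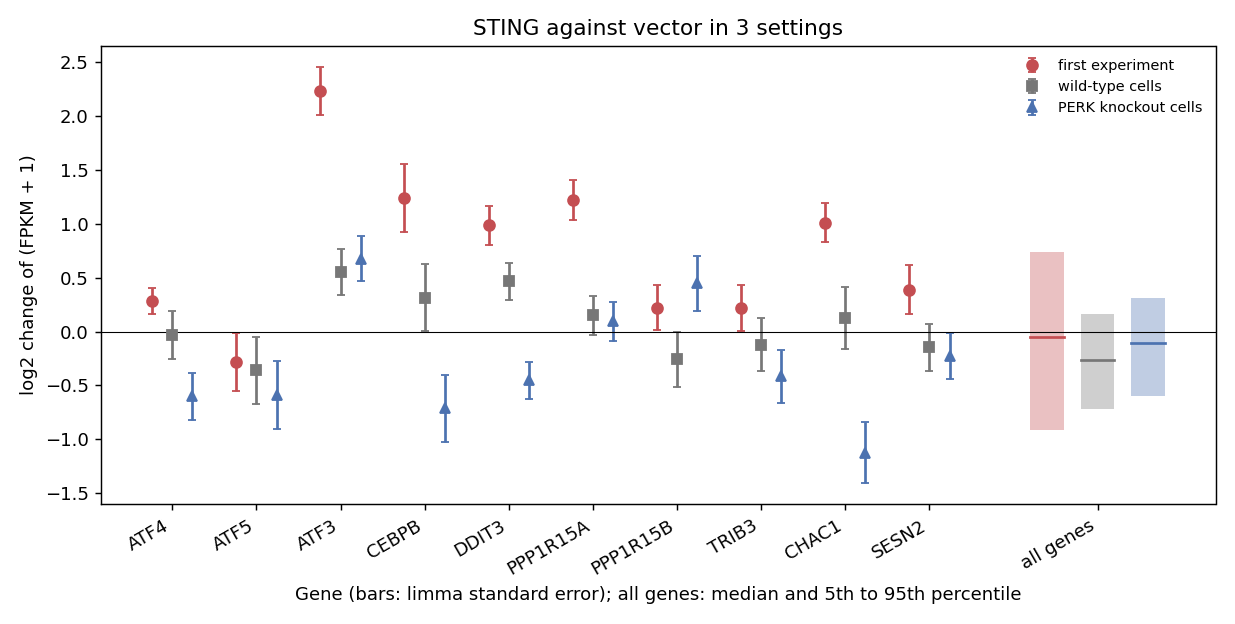
Log2 change of (FPKM + 1) from vector to STING with its limma standard error, for the first experiment (red circles), wild-type cells (grey squares) and PERK knockout cells (blue triangles), beside the median and the 5th to 95th percentile of all genes tested in each. CHAC1 is at 1.01, 0.12 and -1.12 in these settings and DDIT3 at 0.99, 0.47 and -0.45, while ATF3 is positive in each; under another scaling ATF4, ATF5, PPP1R15B, TRIB3 and SESN2 change sign in wild-type cells.

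CHAC1 stood at 14.5 and 19.2 with vector and at 8.55 and 5.92 with STING in knockout cells. Its log2 change of -1.12 (SE 0.29) was lower than all but 0.216% of genes, with a limma adjusted p of 0.470. DDIT3 stood at 51.9 and 60.7 and then 43.8 and 37.9 (-0.45, SE 0.17), and ATF4 at 2406 and 2055 and then 1753 and 1224 (-0.60, SE 0.22). Both were lower in each STING library than in either vector library. CEBPB stood at 3.24 and 2.07 with vector and at the floor of 1 and at 1.42 with STING, so its difference is a lower limit. ATF3 ran the other way, from 11.9 and 14.6 to 20.0 and 23.5 (0.68, SE 0.21), close in size to its change in wild-type cells. PPP1R15B stood at 7.23 and 10.6 with vector and at 11.2 and 13.4 with STING, and PPP1R15A at 40.9 and 48.6 against 48.1 and 47.5, which overlapped. TRIB3 stood at 15.4 and 17.8 against 9.68 and 15.3, with STING libraries far apart, and ATF5 at 9.46 and 6.83 against 7.15 and 3.45.

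Whether the STING response differs between genotypes was tested as the difference of the 2 effects, knockout minus wild type. No member passed and no gene of 12254 did with limma (0%), while 372 genes were higher and 102 lower at an unadjusted p under 0.05. Among these were CHAC1 and DDIT3, both lower, as were 0.832% of genes, and no member was higher, against 3.04%. For DDIT3 the difference was -0.92 (SE 0.24, limma unadjusted p = 0.00567, adjusted p = 0.966), and over 16 other settings it lay between -1.09 and -0.81 with adjusted p from 0.565 to 1.00. For CHAC1 it was -1.25 (SE 0.40, limma unadjusted p = 0.0158, adjusted p = 0.966), between -1.57 and -0.93 over the same settings. CEBPB had -1.03 (SE 0.44), near the floor, and ATF4 -0.57 (SE 0.31). ATF3 had 0.12 (SE 0.30) and PPP1R15A -0.05 (SE 0.26), and PPP1R15B had 0.71 (SE 0.36). DDIT3 was the 1 member higher with STING in wild-type cells and lower in knockout cells with no overlap in either, a form that 0.457% of genes had.

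The genotypes were first compared with vector alone. No member passed with limma, where 6 genes (0.0490%) did, 0.0326% higher and 0.0163% lower. At an unadjusted p under 0.05, SESN2 and PPP1R15A were lower (7.99% of genes) and no member was higher (4.38%). After median-of-ratios scaling and with quantile normalization SESN2 stayed lower, but PPP1R15A did not (limma unadjusted p = 0.111 and 0.110). With quantile normalization ATF4 was also lower (-0.56, limma unadjusted p = 0.00173) and TRIB3 was higher (0.48, limma unadjusted p = 0.0365). SESN2 stood at 39.0 and 47.9 in wild-type and at 19.0 and 25.1 in knockout cells with vector (log2 difference -0.95, SE 0.22, limma adjusted p = 0.194), lower than all but 1.02% of genes. PPP1R15A stood at 56.9 and 65.2 against 40.9 and 48.6 (-0.44, SE 0.18). DDIT3 was level, at 57.8 and 58.8 against 51.9 and 60.7. In all, ATF3, ATF4, ATF5, PPP1R15A and SESN2 were lower in both knockout libraries, as were 25.8% of genes, and TRIB3 was higher in both, as were 12.5%.

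The genotypes were then compared with STING. DDIT3 and CHAC1 were lower in knockout cells, 2 of 10 members, where 0.547% of 12254 genes were called lower and 1.21% higher (1.75% in all). DDIT3 stood at 81.7 and 80.4 in wild-type and 43.8 and 37.9 in knockout cells with STING (log2 difference -0.97, SE 0.17, limma adjusted p = 0.0439), and CHAC1 at 21.5 and 23.7 against 8.55 and 5.92 (-1.54, SE 0.29, limma adjusted p = 0.0477). Leaving out any of the 8 libraries ended both calls, as did fitting these 4 libraries alone, with the direction kept and adjusted p from 0.0536 to 0.353. SESN2 stood at 40.1 and 37.8 against 20.4 and 16.9 (-1.03, SE 0.22) and ATF4 at 2829 and 2502 against 1753 and 1224 (-0.86, SE 0.22), and neither passed (limma adjusted p = 0.0663 and 0.106). SESN2 passed after median-of-ratios scaling (0.0363) and at a mean of at least 5 (0.0332), and both passed with quantile normalization (0.0415 and 0.0180). At an unadjusted p under 0.05, 7 members were lower (7.10% of genes) and none higher (10.3%). In all, 8 of 10 members were lower in both knockout STING libraries, as were 20.6% of genes; PPP1R15B was higher in both, at 11.2 and 13.4 against 7.38 and 9.62, as were 24.8%. This comparison shares its STING libraries with the responses above, and the 4.62-fold lower STING RNA of the knockout cells goes with it. Of the other pathway genes, DDIT4 (REDD1), an mTORC1 inhibitor induced by stress, was the 1 called. It was higher in knockout cells, at 196 and 358 against 69.3 and 71.3 (1.90, SE 0.33, limma adjusted p = 0.0439). With vector it also stood higher in both knockout libraries, at 201 and 330 against 99.1 and 117, without passing. The call with STING was lost in 7 of the 8 fits without a library, the exception being that without knockout vector library 1.

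**Figure D4:**
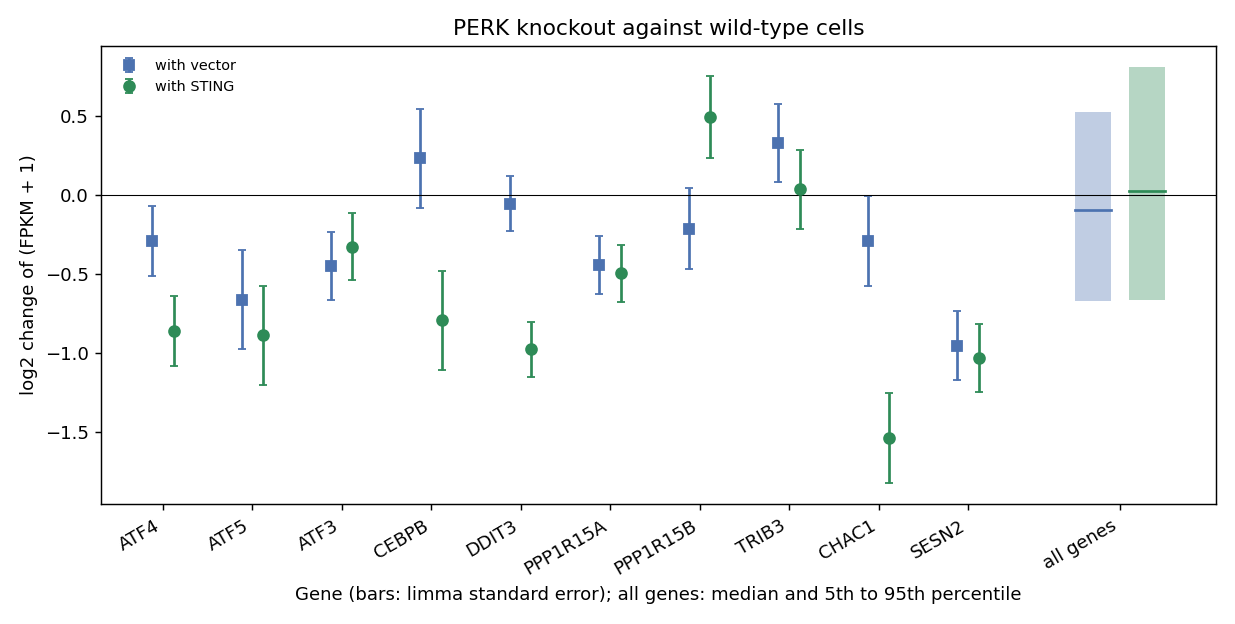
Log2 difference of (FPKM + 1) between PERK knockout and wild-type cells with its limma standard error, with vector (blue squares) and with STING (green circles), beside the median and the 5th to 95th percentile of all genes. SESN2 is near -1 in both, whereas DDIT3 goes from -0.05 to -0.97 and CHAC1 from -0.29 to -1.54.

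Of the other pathway lists in the knockout experiment, no gene passed with limma for STING in wild-type or knockout cells. Of 46 listed targets of ATF4 and CHOP, 0 were higher and 3 lower at an unadjusted p under 0.05 in wild-type cells, and 1 was higher and 1 lower in knockout cells. Over all genes 0.441% were higher and 12.4% lower in wild-type cells, and 1.06% and 6.64% in knockout cells. Their median changes were -0.32 and -0.21, against -0.27 and -0.11 over all genes. The 19 genes of the IRE1 and ATF6 branches had medians of -0.67 in wild-type and -0.20 in knockout cells, and 3 were lower at an unadjusted p under 0.05 in wild-type cells, again beside 12.4% of all genes.

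Across the 8 libraries, the 9 members with a mean of at least 5, which leaves out CEBPB, did not all follow 1 pattern. On log2(FPKM + 1), ATF4, ATF5, DDIT3, PPP1R15A, CHAC1 and SESN2 correlated positively with one another (Pearson r = 0.55 to 0.95). Among them ATF4 followed ATF5 (0.95) and CHAC1 (0.92), CHAC1 followed DDIT3 (0.87) and PPP1R15A followed SESN2 (0.89). ATF4 had r = -0.09 with ATF3 and -0.73 with PPP1R15B. TRIB3 ranged from -0.47 with ATF3 to 0.14 with PPP1R15B. The points are 4 groups of 2 and share depth, so these are descriptions. Among 6331 other genes with a mean of at least 5, the closest in pattern over these libraries were CCDC56 for ATF4 (r = 0.99), HIST1H4A for ATF3 (0.94), BCL10 for DDIT3 (0.91), TMEM216 for CHAC1 (0.96), RRAS2 for PPP1R15A (0.98), DCAF7 for PPP1R15B (0.96), HAUS8 for ATF5 (0.98), TMEM69 for TRIB3 (0.96) and NR2F2 for SESN2 (0.99). NR2F2 stood at 22.4 to 27.0 in wild-type and 12.0 to 16.4 in knockout libraries, the same split as SESN2. HIST1H4A stood at 2.95 and 4.34 with vector and 8.23 and 8.82 with STING in wild-type cells, and at 2.29 and 3.89 and then 5.17 and 5.37 in knockout cells.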

How the data were processed

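Per the labels' protocols, polyadenylated RNA of the ribosomal fraction was amplified with Smart-seq2 for paired-end sequencing. FPKM values were made and deposited by the authors; TopHat2 2.1.1, Cufflinks 2.2.1 and build hg19 are named in the submitters' processing notes, with no role or order given for them. The sources used here give no annotation or filter. The knockout table names no unit, never goes below 1, and was read as FPKM floored at 1. Per the labels, ERCC spike-ins were added there, and they were not used here. Depth is unknown, so no counting intervals are given. At the lowest value stood 38.7% to 40.2% of symbols per library in the first table and 13.1% to 18.1% in the second. Replicates correlated across genes at r = 0.948 to 0.991.

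Groups came from sample titles. Log2(FPKM + 1) values were tested with limma 3.58.1 (R 4.3.3), leaving out constant genes and those whose mean was under 1, with intensity trend and robust estimation, two-sided, at an adjusted p of 0.05. The 8 knockout-experiment libraries shared 1 spread. The script was run on simulated data with planted changes, which checks the code and not these results. The rule named all 10 members, up to 3 called genes per pathway list and comparison, and the 3 closest genes in pattern, of which the first is given. Members and lists were chosen with earlier results of these data known; the comparison of genotypes with STING was added after the data were seen. Of the marker lists, 2 genes are not reported here.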

Additional observations from a re-analysis of the deposited data

Results flagged for a closer look

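DDIT3 libraries with STING lay on opposite sides of the vector libraries in the 2 genotypes, though neither response passed (limma adjusted p = 0.384 in wild-type and 0.614 in knockout cells). In each wild-type STING library it stood above both vector libraries (81.7 and 80.4 against 57.8 and 58.8 FPKM), and in each knockout STING library below both (43.8 and 37.9 against 51.9 and 60.7). The difference of the 2 log2 changes, knockout minus wild type, was -0.92 (limma unadjusted p = 0.00567, adjusted p = 0.966), so it did not pass over all genes. After median-of-ratios scaling and quantile normalization the log2 change of DDIT3 in knockout cells was -0.31 and -0.23, against -0.45 as deposited. The form, higher in one genotype and lower in the other with no overlap, was seen in 0.457% of tested genes. STING RNA of the transfected wild-type cells was 4.62 times that of the knockout cells, and its part in the difference was not tested.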

How the results depend on the processing

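Of 5 members called in the first experiment, 0 to 4 passed when a library was left out (4 without vector library 1, 3 without vector library 2, 0 without either STING library), and 0 without intensity trend and robust estimation. All genes called there numbered 1117, with 580 without a filter on low values, 17 without trend and robust estimation, and 38 to 818 with a library left out; the share lower was 78.7% as deposited, 68.9% with median-of-ratios scaling and 55.5% with quantile normalization. With quantile normalization ATF4 passed (0.71, limma adjusted p = 0.0161) and CEBPB did not (adjusted p = 0.0663); CEBPB was also lost without a filter on low values (0.109).

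With vector, 6 genes were called between genotypes: 16 with a pseudocount of 0.25, 32 at a mean of at least 5, 43 with median-of-ratios scaling, 24 with quantile normalization, 0 without trend and robust estimation, 0 in a fit of these groups alone and 0 to 3 with a library left out. With STING, 2 members were called: 1 with a pseudocount of 5, 4 with quantile normalization (ATF4 and SESN2 added), 1 without trend and robust estimation, 0 in a fit of these groups alone and 0 with any library left out. All genes called there numbered 215: 356 at a mean of at least 5, 384 and 468 with median-of-ratios scaling and quantile normalization, 0 in a fit of these groups alone and 0 to 128 with a library left out. SESN2 passed there at a mean of at least 5 and with median-of-ratios scaling (adjusted p = 0.0332 and 0.0363). For STING, wild-type cells had 1 to 2 and knockout cells 1 to 3 genes called with a library left out, and members stayed at 0, as in the difference of the responses. Why counts moved was not tested, except that the fits without a library hold fewer samples; a group left with 1 library is assumed to vary like the others.

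Replicate numbers share no stated source, and deviations of same-numbered libraries correlated at 0.0741 between groups in the first experiment and 0.0418 to 0.528 in the second. With the replicate block, the same 5 members passed in the first experiment and 0 in the STING responses of wild-type and knockout cells; 2 genes passed for STING in knockout cells, 105 between genotypes with vector and 851 with STING, with 4 members (ATF4 and SESN2 added). Among 1088 single-gene values under other settings, 0 called values reversed, 88 changed their call and 35 uncalled ones changed sign.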

Other observations

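DDIT4, whose product REDD1 restrains mTORC1, passed the limma test in no comparison of STING with vector. In the wild type it went from 99.1 and 117 FPKM with vector to 69.3 and 71.3 with STING, and in the knockout from 201 and 330 to 196 and 358. In the first experiment it stood at 20.5 and 24.2 with vector and at 29.9 and 35.5 with STING. BCL10, an adaptor of NF-kB signalling and the gene closest to DDIT3 in pattern, went from 5.04 and 6.88 to 8.60 and 8.37 in the wild type, and from 4.92 and 6.86 to 4.20 and 4.68 in the knockout. It was picked for its likeness to DDIT3, so its pattern is a description.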
